A study of Mus musculus with 9 samples.

Results

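The endothelin genes encode a small signalling system of the vessel wall: the peptides Edn1 and Edn3, the receptors Ednra and Ednrb, and the converting enzymes Ece1 and Ece2. These 6 genes were looked up by name in a table of exonic parts, into which annotated exon ends divide each gene, which lists 480017 parts under 54660 gene identifiers. Of the 6 genes, 5 were found under identifiers of their own, with 69 parts between them, while the reads of Ece2 lie under an identifier joined with other genes. The genes were chosen because an earlier look at their read counts in these same hearts showed Edn3 ordered by genotype and Edn1 and the receptors not, so the differences between genotypes are given below as a description, and calls from fits over all genes are counted beside the share of all genes called, as no evidence of their own.

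The hearts came from mice aged 12 weeks in 3 genotype groups of 3 RNA libraries each. The groups were homozygous and heterozygous carriers of a CRISPR/Cas-edited Rbm20 allele, c.1121_1122delAG, a frameshift from codon 374 on by the loss of 2 bases, and wild-type mice. The labels name no strain, sex or founder number, and do not say whether the heart was taken whole or in part. Where a p is given, it sets a difference between groups against the spread between these libraries, and separate mice are not stated for them.

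Endothelins are made as long precursors, cut first to big endothelins and then by the converting enzymes to short peptides closed by disulfide bridges. Endothelin-1, the product of Edn1, is a strong vasoconstrictor released by endothelial cells, and it acts in the heart mainly through the receptor encoded by Ednra on muscle cells. The receptor encoded by Ednrb binds endothelin-1 and endothelin-3 about equally well and is also found on endothelium, whereas Ednra prefers endothelin-1. Edn3 and Ednrb are best known from the neural crest, where they serve melanocytes and the nerve cells of the gut.

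The stretch of each ligand gene that encodes the mature peptide shows how near the 2 ligands are. It is read 5′ to 3′ in the coding direction from the protein-coding transcripts of GENCODE M21 (GRCm38), lies in coding exon sequence, and was located by the spacing of its cysteine codons and its last tryptophan codon. Capitals mark the bases that differ between the genes.
Edn3: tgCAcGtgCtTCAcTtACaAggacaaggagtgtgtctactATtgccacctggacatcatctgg
Edn1: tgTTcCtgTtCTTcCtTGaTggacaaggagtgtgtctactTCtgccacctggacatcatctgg
Each stretch is 63 bases long and holds 21 codons, 4 of them for cysteine. The genes share 50 of the 63 bases (79.4%), and 13 bases in 8 codons differ, 6 of which change the residue. All but 2 of the differing bases lie in the first part of the peptide, and the last 7 codons are the same in both genes.

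Each library held between 296.6 and 323.2 M inclusion reads, of which 16.9% to 19.7% fell on mitochondrial genes. Rbm20, the edited gene, had 66.0, 51.8 and 54.7 reads scaled to library size (counts per M reads, CPM) in homozygous hearts and 85.5, 68.4 and 90.2 CPM in heterozygous hearts, against 105, 104 and 132 CPM in wild-type hearts. Markers of heart muscle summed to between 73054.5 and 82767 CPM in homozygous hearts. In heterozygous hearts they summed to between 58833 and 67894 CPM, and in wild-type hearts to between 59910 and 70370 CPM. All homozygous libraries thus lay above all others. The 7 tested markers had log2 fold changes from -0.74 to 0.79 for homozygous against wild-type, with a median of 0.19. The part of these cells in the level of Edn3 was not tested. Heterozygous replicate 3 stood apart in its atrial markers, which summed to 2374 CPM, against 246 and 268 CPM in the other 2 heterozygous libraries. The labels carry library numbers in 2 runs, and the run above 11000 holds heterozygous replicate 3 and wild-type replicates 2 and 3 but no homozygous library.

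Edn3 (ENSMUSG00000027524, chromosome 2, 174602412 to 174625835, GRCm39) was the member that differed between the genotypes. Its inclusion reads, which are the reads assigned to its parts and summed over the gene, numbered 4688, 5455 and 5593 in homozygous hearts and 990, 1006 and 1060 in heterozygous hearts, against 192, 327 and 524 in wild-type hearts. On the CPM scale these were 15.1, 18.8 and 20.05 in homozygous hearts and 3.42, 3.11 and 3.33 in heterozygous hearts, against 0.618, 1.05 and 1.72 in wild-type hearts. Every homozygous library lay above every heterozygous one, and every heterozygous library above every wild-type one. Among all tested genes, such a higher level without overlap was seen in 14.4% for homozygous against wild-type, 3.83% for heterozygous against wild-type and 8.39% for homozygous against heterozygous hearts. In bulk tissue, a change in the number of cells that make Edn3 and a change in the RNA per cell cannot be told apart.

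Edn3 averaged 18.0 ± 2.57 CPM in homozygous, 3.29 ± 0.158 CPM in heterozygous and 1.13 ± 0.558 CPM in wild-type hearts (SD, n = 3 each). The homozygous level was 15.9-fold the wild-type one, a log2 fold change of 3.99 (SE 0.30). The heterozygous level was 2.91-fold the wild-type one (log2 1.54, SE 0.28), and the homozygous level was 5.47-fold the heterozygous one (log2 2.45, SE 0.28). The heterozygous libraries therefore lay far nearer to wild-type than to homozygous in CPM, and their spread was the smallest of the 3 groups. Relative to their mean, the wild-type libraries differed most among themselves, with replicate 3 at 1.72 CPM and replicate 1 at 0.618 CPM.

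Within the 6 libraries numbered below 11000, Edn3 was at 15.1 to 20.05 CPM in homozygous hearts and at 3.11 and 3.42 CPM in heterozygous hearts, against 0.618 CPM in the 1 wild-type library. In the other run it was at 3.33 CPM in the heterozygous library, against 1.05 and 1.72 CPM in the wild-type libraries. The genotypes stood in the same order in each run, as far as each run holds them. With the run as a term in the fit, the log2 fold change of Edn3 was 4.43 for homozygous against wild-type and 1.81 for heterozygous against wild-type. Heterozygous replicate 3, the library rich in atrial markers, was not apart from the other heterozygous libraries in Edn3.

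Among the 22049 gene identifiers that passed the low-count filter, 15 (0.068%, Edn3 included) had a log2 fold change for homozygous against wild-type at least as large as that of Edn3. The same count was 205 (0.93%) for heterozygous against wild-type and 59 (0.268%) for homozygous against heterozygous. In 125 identifiers (0.567%) all 9 libraries were ordered as in Edn3, with no overlap between neighbouring groups. Of the 5 members with their own identifier, 1, Edn3, was called higher by edgeR in homozygous against wild-type hearts at an adjusted p under 0.05, where 1.87% of all tested genes were called higher and 2.52% lower. In heterozygous against wild-type hearts edgeR called 0 members and 0 genes of any kind (0%), with 712 genes at an unadjusted p under 0.05. DESeq2 called 22 genes in that comparison and edgeR with no low-count filter 54, and Edn3 was the 1 member among each. In homozygous against heterozygous hearts 1 member, again Edn3, was called higher, beside 0.508% of all genes higher and 0.44% lower. The members were chosen by these same values, so nothing is read from their counts.

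**Figure D1:**
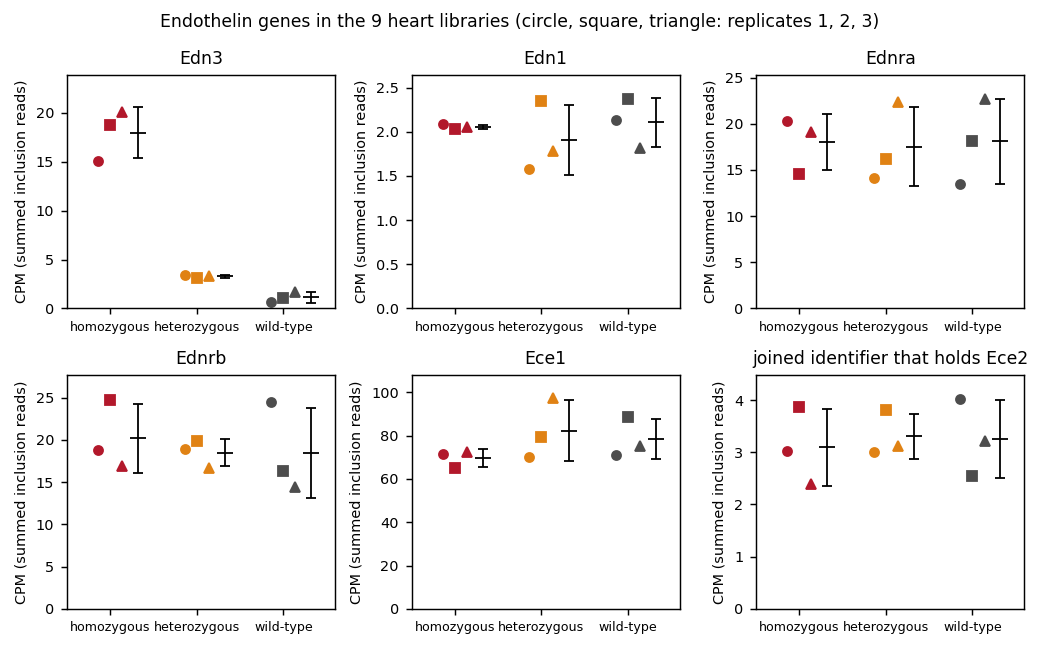
Summed inclusion reads in CPM (vertical axis, from 0, its own scale in each panel) for the endothelin genes in each library, by genotype (horizontal axis); points are libraries, with shapes for replicates, and the bars beside them show the mean and SD of 3 libraries. Edn3 is at 15.1 to 20.05 CPM in homozygous, 3.11 to 3.42 CPM in heterozygous and 0.618 to 1.72 CPM in wild-type hearts, and in the other 5 panels the groups overlap.

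Edn1 (ENSMUSG00000021367, chromosome 13, 42454952 to 42461466, GRCm39), the gene of the main endothelin of vessels, was low in all groups. It had 646, 590 and 574 reads in homozygous hearts and 458, 759 and 566 reads in heterozygous hearts, against 663, 740 and 553 reads in wild-type hearts. In CPM it was at 2.08, 2.03 and 2.06 in homozygous hearts and at 1.58, 2.35 and 1.78 in heterozygous hearts, against 2.13, 2.37 and 1.82 in wild-type hearts. The 3 groups overlapped, and the homozygous libraries lay within 0.0241 CPM (SD) of their mean of 2.06 CPM, against SDs of 0.398 CPM in heterozygous and 0.274 CPM in wild-type hearts. The log2 fold change was -0.03 (SE 0.17) for homozygous against wild-type and -0.15 (SE 0.17) for heterozygous against wild-type. Of the 5 parts of Edn1, 1 inner part of 159 bases (part 3) was lower in all homozygous than in all wild-type libraries, with 64, 65 and 61 reads in homozygous against 88, 112 and 77 reads in wild-type hearts, a layout seen in 16.4% of all parts with a mean of at least 10 inclusion reads. Edn2, the third endothelin gene, was almost without reads, with 14 over the 3 homozygous libraries and 6 over the 3 heterozygous ones, against 4 over the 3 wild-type ones, and it did not pass the low-count filter.

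Levels of different genes can be compared only per length. Only parts with a mean PSI of at least 0.95 were used, where PSI is the fraction spliced in. The CPM of these parts were divided by their length in kilobases, with 148 bases added to each part. A part that no junction read skips has a PSI of 1 even with few reads, and such parts lower the level per length. Part 1 of Ece1, for example, had 60 reads over the wild-type libraries, against 2461 in its part 9. On this scale Edn3 was at 3.78 ± 0.539 in homozygous, 0.692 ± 0.0352 in heterozygous and 0.238 ± 0.118 CPM per kilobase in wild-type hearts (SD, n = 3 each). Edn1 was at 0.715 ± 0.00838 in homozygous, 0.661 ± 0.138 in heterozygous and 0.732 ± 0.0953 CPM per kilobase in wild-type hearts. Edn1 was the more abundant ligand transcript in all 3 wild-type libraries and Edn3 in all 3 homozygous ones.

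The ratio of Edn3 to Edn1 per kilobase was 4.38, 5.60 and 5.88 in homozygous hearts and 1.31, 0.800 and 1.14 in heterozygous hearts, against 0.176, 0.268 and 0.575 in wild-type hearts. Edn3 thus made up 81.4% to 85.5% of the length-scaled level of both ligands in homozygous hearts and 44.5% to 56.7% in heterozygous hearts, against 14.9% to 36.5% in wild-type hearts. In heterozygous hearts the 2 ligands did not differ beyond their spread: Edn1 was ahead in replicate 2 and Edn3 in replicates 1 and 3. Between genotypes this ratio moved with Edn3 and not with Edn1, whose groups overlapped. Within heterozygous hearts Edn1 varied more, at 0.550, 0.816 and 0.618 CPM per kilobase, against 0.721, 0.653 and 0.702 for Edn3.

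**Figure D2:**
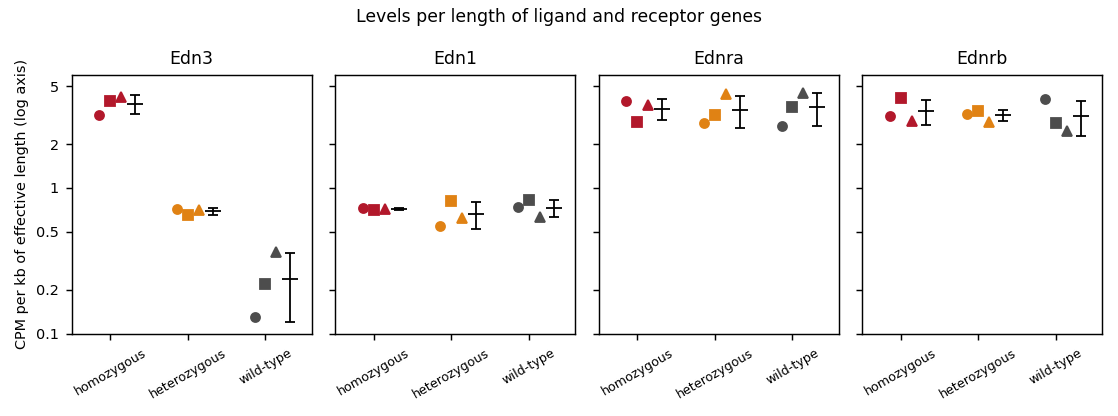
Level per kilobase of effective length (vertical axis, CPM per kilobase, log scale, shared by the panels) of both ligands and both receptors by genotype; points are libraries and the bars show the mean and SD of 3 libraries. Edn3 averages 3.78 in homozygous hearts, beside 3.50 for Ednra and 3.38 for Ednrb, and 0.238 in wild-type hearts, below the 0.732 of Edn1.

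Ednra (ENSMUSG00000031616, chromosome 8, 78389660 to 78451093, GRCm39), the receptor that prefers endothelin-1, had 20.4, 14.6 and 19.1 CPM in homozygous hearts and 14.1, 16.2 and 22.4 CPM in heterozygous hearts, against 13.5, 18.2 and 22.7 CPM in wild-type hearts. The groups overlapped throughout, where in either direction 30.5%, 8.26% and 17.6% of all tested genes did not overlap for homozygous against wild-type, heterozygous against wild-type and homozygous against heterozygous. Ednra averaged 18.0 ± 3.02 CPM in homozygous, 17.5 ± 4.30 CPM in heterozygous and 18.1 ± 4.59 CPM in wild-type hearts. The log2 fold change was -0.01 (SE 0.21) for homozygous against wild-type and -0.05 (SE 0.21) for heterozygous against wild-type. With the library-number run as a term in the fit, the value for homozygous against wild-type was 0.41.

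Ednrb (ENSMUSG00000022122, chromosome 14, 104052061 to 104081838, GRCm39), the receptor for both ligands, had 18.8, 24.7 and 17.0 CPM in homozygous hearts and 18.9, 19.9 and 16.7 CPM in heterozygous hearts, against 24.5, 16.3 and 14.4 CPM in wild-type hearts. Here too the groups overlapped, with means of 20.2 ± 4.05 CPM in homozygous, 18.5 ± 1.64 CPM in heterozygous and 18.4 ± 5.34 CPM in wild-type hearts. The log2 fold change was 0.13 (SE 0.19) for homozygous against wild-type and 0.01 (SE 0.19) for heterozygous against wild-type. The reads per library ran from 4078 to 7110 for Ednra and from 4388 to 7601 for Ednrb.

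Per kilobase the receptors lay close together, with Ednra at 3.50 and Ednrb at 3.38 in homozygous and at 3.44 and 3.14 in heterozygous hearts, against 3.58 and 3.11 in wild-type hearts. Their ratio, Ednra over Ednrb, was 1.27, 0.691 and 1.28 in homozygous hearts and 0.863, 0.936 and 1.54 in heterozygous hearts, against 0.655, 1.28 and 1.82 in wild-type hearts. The ratio varied more within a genotype than between genotypes. Homozygous replicate 2 and wild-type replicate 1 had the lowest Ednra and the highest Ednrb of their groups. Those libraries also had the lowest coverage of gene starts relative to gene ends in their groups, with a median log2 ratio over 6411 genes of -0.87 in homozygous replicate 2 and -0.54 in wild-type replicate 1. In heterozygous hearts that ratio was lowest in replicate 2, at -0.58, while Ednra was lowest in replicate 1. The ratio also went with the run of library numbers. Heterozygous replicate 3 and wild-type replicates 2 and 3, all above 11000, were at -0.33, -0.40 and -0.32. All libraries of the other run were lower, with heterozygous replicate 1 the highest of them at -0.42. The part of this coverage in the receptor levels was not tested.

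Ece1 (ENSMUSG00000057530, chromosome 4, 137589548 to 137692540, GRCm39), the enzyme that cuts big endothelin-1, was the most abundant member. It had 71.6, 65.0 and 72.3 CPM in homozygous hearts and 70.0, 79.5 and 97.5 CPM in heterozygous hearts, against 71.1, 88.8 and 75.4 CPM in wild-type hearts. The groups overlapped, and the log2 fold change was -0.17 (SE 0.13) for homozygous against wild-type, 0.07 (SE 0.13) for heterozygous against wild-type and -0.24 (SE 0.13) for homozygous against heterozygous. With the run of library numbers in the fit the first of these was 0.03.

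Single parts of Ece1 were also compared. Of its 27 parts, 8 were lower in CPM in all homozygous than in all wild-type libraries, with ratios of 0.491 to 0.826, and 0 were higher. Among all 249208 parts with a mean of at least 10 inclusion reads, 16.4% were lower in this way. Homozygous replicate 2 was the lowest library in each of these parts, and in that library the log2 ratio of coverage at the start of Ece1 over that at its end was -1.38, against -0.74 and -0.68 in the other homozygous libraries. In heterozygous hearts that ratio was -0.56, -0.75 and -0.49, and in wild-type hearts it was -0.69, -0.38 and -0.45. The part of this coverage difference in the lower values was not tested.

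Ece2, the related converting enzyme, had no row under its own name. Its reads lie under 1 identifier that joins 3 genes, Ece2 with Gm49333 and Eef1akmt4, in 41 parts on chromosome 16 from 20430343 to 20465235 (GRCm39), and cannot be divided between them here. The joined identifier averaged 3.10 ± 0.742 CPM in homozygous, 3.31 ± 0.432 CPM in heterozygous and 3.26 ± 0.742 CPM in wild-type hearts (SD, n = 3 each), from 666 to 1249 reads per library. The groups overlapped in each of the 3 comparisons.

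Set in order by level per kilobase, the wild-type hearts ran from Ece1 at 9.93 through Ednra at 3.58, Ednrb at 3.11, Edn1 at 0.732 and the joined Ece2 identifier at 0.383 down to Edn3 at 0.238. Ednra and Ednrb did not differ beyond their spread, and neither did the last 2 of this order. In heterozygous hearts Edn3, at 0.692, stood level with Edn1, at 0.661, within their spread. In homozygous hearts Edn3, at 3.78, stood beside Ednra, at 3.50, and Ednrb, at 3.38, with no difference beyond the spread of the libraries, and below Ece1, at 8.83. The other members and the joined identifier kept their order relative to each other in all 3 genotypes.

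The reads of Edn3 were spread along the gene. Of its 13 parts, 11 had a mean PSI over 0.9 in each group. In these 11 the CPM of homozygous hearts were 9.89 to 19.2 times those of wild-type hearts, and the CPM of heterozygous hearts were 2.50 to 3.81 times those of wild-type hearts. In 10 of the 11 all libraries were ordered homozygous above heterozygous above wild-type without overlap, an order that 0.366% of all parts with a mean of at least 10 inclusion reads showed. The parts share the reads of 1 gene and the rule used these values, so nothing is read from the count. The exception was part 1, at the start of the gene, where heterozygous and wild-type libraries overlapped at 28 and 9 reads per group. In homozygous hearts part 1 (180 bases) had 86 reads, against 665 in the adjoining part 2 (220 bases). No junction reads skip part 1, so its PSI of 1 does not show that most transcripts include it.

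The longest part of Edn3, part 13 of 1457 bases at the end of the gene (174624379 to 174625835), had 4.17, 5.36 and 5.47 CPM in homozygous hearts and 0.795, 0.780 and 0.839 CPM in heterozygous hearts, against 0.222, 0.173 and 0.507 CPM in wild-type hearts. Part 7, an inner part of 177 bases (174620381 to 174620557), had 1.37, 1.69 and 1.76 CPM in homozygous hearts and 0.384, 0.300 and 0.368 CPM in heterozygous hearts, against 0.058, 0.131 and 0.165 CPM in wild-type hearts. Inner and terminal parts thus gave the same order of genotypes.

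Parts 3 and 6 of Edn3 were skipped in nearly all transcripts. Junction reads that skip part 6 numbered 175, 203 and 187 in homozygous hearts and 40, 42 and 46 in heterozygous hearts, against 11, 15 and 28 in wild-type hearts. Those that skip part 3 numbered 134, 133 and 159 in homozygous hearts and 21, 39 and 44 in heterozygous hearts, against 6, 10 and 27 in wild-type hearts. Reads that skip part 6 kept the genotype order without overlap, while for part 3 heterozygous replicate 1 lay below wild-type replicate 3. Inclusion reads of part 3 were 41 over the homozygous and 3 over the heterozygous libraries, against 0 over the wild-type ones.

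**Figure D3:**
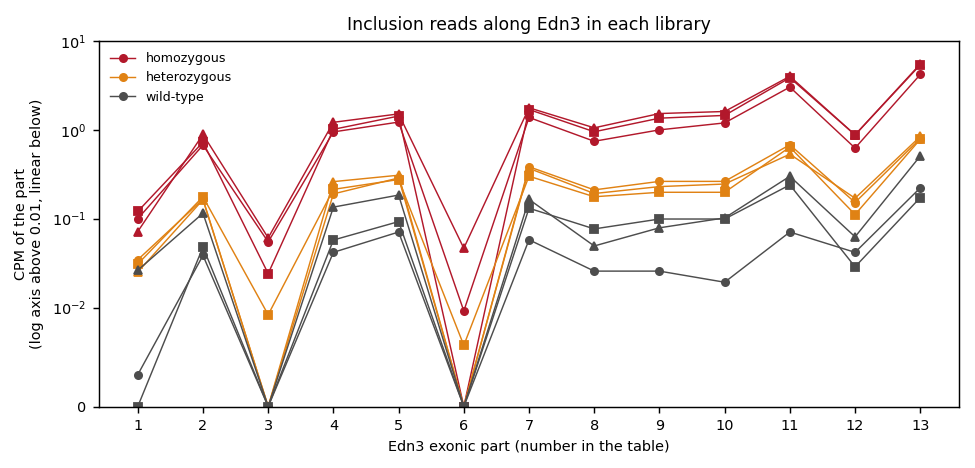
CPM of each of the 13 exonic parts of Edn3 (vertical axis, logarithmic above 0.01 CPM and linear below it) by part number in the table (horizontal axis); each line is 1 library, coloured by genotype. The homozygous lines run above the heterozygous ones and these above the wild-type ones over most of the gene, and all fall to near 0 at parts 3 and 6, which are skipped.

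Inclusion within the endothelin transcripts was compared as PSI, which runs from 0 to 1. Of the 69 parts of the 5 members, 10 had enough reads and variation for the fit over all parts: 3 each in Edn3, Ednrb and Ece1, 1 in Ednra and 0 in Edn1. By limma, 0 of the 10 were called at an adjusted p under 0.05 with a PSI difference of at least 0.1 in any comparison, beside 0.413% of all tested parts for homozygous against wild-type, 0.0755% for heterozygous against wild-type and 0.264% for homozygous against heterozygous. The 3 tested parts of Edn3 differed by at most 0.0323 in mean PSI between any 2 groups.

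A long part of Ednra, part 4 of 1823 bases (78396323 to 78398145), was included at a PSI of 0.127, 0.130 and 0.120 in homozygous hearts and 0.0497, 0.126 and 0.0601 in heterozygous hearts, against 0.0602, 0.0424 and 0.0464 in wild-type hearts. All homozygous libraries lay above all wild-type ones, by 0.0758 in the mean, which is under the difference of 0.1 set for a call. Heterozygous replicate 2 lay with the homozygous libraries and the other 2 heterozygous libraries with wild-type. Groups that do not overlap in PSI were seen in 12.4% of all tested parts in this comparison.

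Part 4 of Ece1 (159 bases, 137640782 to 137640940) had a PSI of 0.320, 0.446 and 0.354 in homozygous hearts and 0.318, 0.227 and 0.228 in heterozygous hearts, against 0.227, 0.289 and 0.294 in wild-type hearts. The homozygous libraries lay above both other groups, by 0.103 in the mean over wild-type, and homozygous replicate 2 was the highest. The CPM of the part itself overlapped between groups, with means of 0.220 in homozygous, 0.237 in heterozygous and 0.270 in wild-type hearts. Junction reads that skip it numbered 80, 30 and 58 in homozygous and 65, 125 and 134 in heterozygous hearts, against 97, 122 and 102 in wild-type hearts. Groups that do not overlap in PSI were seen in 11.2% of all tested parts for homozygous against heterozygous. Part 12 of Ednrb (158 bases, 104080974 to 104081131) had a PSI of 0.318, 0.208 and 0.267 in homozygous hearts and 0.410, 0.394 and 0.380 in heterozygous hearts, against 0.323, 0.198 and 0.264 in wild-type hearts. The heterozygous libraries lay above both other groups, which overlapped with each other. Groups did not overlap in 8.47% of all tested parts for heterozygous against wild-type and in 11.2% for homozygous against heterozygous.

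**Figure D4:**
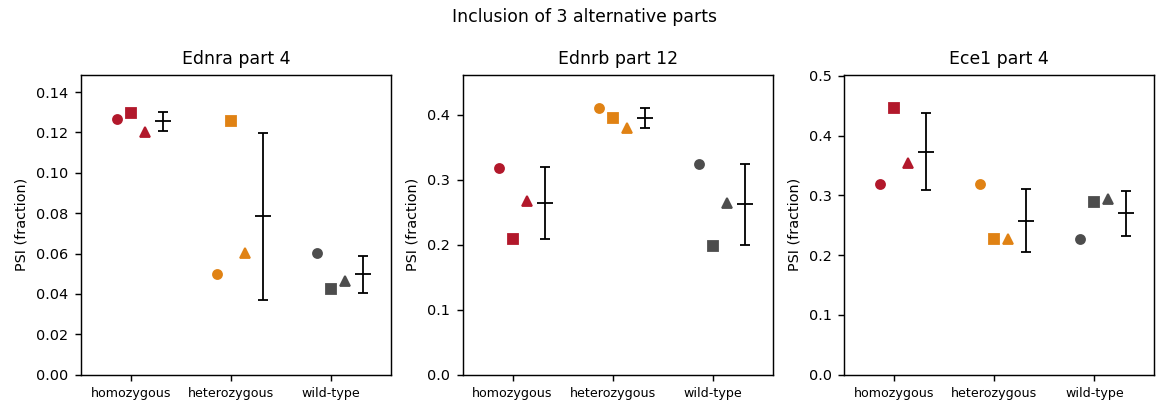
PSI (vertical axis, a fraction, from 0, its own scale in each panel) of 1 alternative part each of Ednra, Ednrb and Ece1 by genotype; points are libraries and the bars show the mean and SD of 3 libraries. Part 4 of Ednra is higher in homozygous than in wild-type hearts and overlaps between homozygous and heterozygous ones. Part 4 of Ece1 is higher in homozygous hearts than in both other groups, and part 12 of Ednrb in heterozygous ones. None was called.

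The genes whose levels followed Edn3 most closely were sought among 7229 identifiers with a mean of at least 10 CPM, by Pearson's r of log2 CPM over the 9 libraries. Hdhd5 came first (r = 0.992), at 23.2 ± 0.550 CPM in homozygous and 19.0 ± 0.5002 CPM in heterozygous hearts, against 15.7 ± 1.29 CPM in wild-type hearts. Next were Hectd2os (r = 0.983), Rexo4 (r = 0.979), Cfl2 (r = 0.967), which encodes a cofilin of muscle, and Gm39214 (r = 0.963). By Spearman's rho in place of Pearson's r, 2 of these 5 were again among the first 5. Since the libraries fall into genotype groups and Edn3 is ordered by them, these values describe a shared order and no more. The closest gene differed far less between genotypes than Edn3, with a log2 fold change of 0.56 for homozygous against wild-type. The log2 fold change of Hectd2os was the largest of these 5 genes, at 1.55, and whether its reads were told apart by strand from those of a gene on the other strand is not stated.

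None of the other members followed Edn3 over the 9 libraries. Pearson's r with Edn3 was -0.09 for Edn1, 0.14 for Ednra, 0.10 for Ednrb, -0.40 for Ece1 and -0.22 for the joined Ece2 identifier. These too are descriptions over 3 groups of 3 libraries.

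Genes that work with endothelins were listed in 4 groups of 85 genes in all: relatives and peptide processing, receptor coupling, signal transduction and other vasoactive systems. Of these, 7 carry joined identifiers, 5 did not pass the low-count filter and 73 were tested. For homozygous against wild-type edgeR called 1 higher and 3 lower, 5.48% of those tested, beside 4.39% of all genes. The median log2 fold change of the 73 genes was -0.05, beside -0.00 over all genes. For heterozygous against wild-type 0 of the 73 were called by edgeR and 0 by DESeq2, with 1 at an unadjusted p under 0.05, and for homozygous against heterozygous edgeR called 1 lower, beside 0.948% of all genes called.

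Among receptor coupling genes, Gnas, which encodes the stimulatory G protein subunit, was higher, at 1620 ± 129 CPM in homozygous against 1140 ± 19.3 CPM in wild-type hearts (log2 0.51, adjusted p = 0.0140, edgeR). Gna12, another G protein subunit, was lower, at 77.0 ± 7.44 CPM in homozygous against 101 ± 2.96 CPM in wild-type hearts (log2 -0.39, adjusted p = 0.0363, edgeR). Gnaq and Gna11, the subunits through which endothelin receptors raise calcium, were not called, with log2 fold changes of -0.25 (adjusted p = 0.126) and -0.04 (adjusted p = 0.850). The call of Gnas was lost without homozygous replicate 2, wild-type replicate 2 or wild-type replicate 3, with adjusted p of 0.0603, 0.0670 and 0.0593, and with the library-number run in the fit (0.103). The call of Gna12 was lost without any of the wild-type libraries, homozygous replicates 2 or 3 or heterozygous replicate 1, with adjusted p of 0.0579 to 0.140, and with the run in the fit (0.176).

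Among other vasoactive systems, Apln, the gene of the vasodilator peptide apelin, fell. It had 4.01, 3.196 and 3.49 CPM in homozygous hearts and 8.08, 7.48 and 6.54 CPM in heterozygous hearts, against 7.18, 6.94 and 6.75 CPM in wild-type hearts. The homozygous libraries lay below all others, with a log2 fold change of -0.96 against wild-type (adjusted p = 0.00224) and -1.05 against heterozygous (adjusted p = 0.00291, edgeR). Ramp1, a partner of the receptor for calcitonin gene-related peptide, had 2.38 ± 0.235 CPM in homozygous against 4.48 ± 0.590 CPM in wild-type hearts (log2 -0.92, adjusted p = 0.0203). That call was lost without homozygous replicates 1 or 2 or wild-type replicates 1 or 2, with adjusted p of 0.0576 to 0.0784, and with the library-number run in the fit (0.0918).

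Nos3, the endothelial nitric oxide synthase that acts downstream of Ednrb on endothelium, had 71.6 ± 5.38 CPM in homozygous against 63.0 ± 8.02 CPM in wild-type hearts (log2 0.18, adjusted p = 0.371, edgeR). Mme, neprilysin, a protease that can break down endothelins, had 7.71 ± 2.15 CPM in homozygous against 7.63 ± 0.741 CPM in wild-type hearts (log2 0.02, adjusted p = 0.974). Of the 11 tested genes of relatives and peptide processing and the 24 of signal transduction, 0 were called by edgeR in any comparison.

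**Figure D5:**
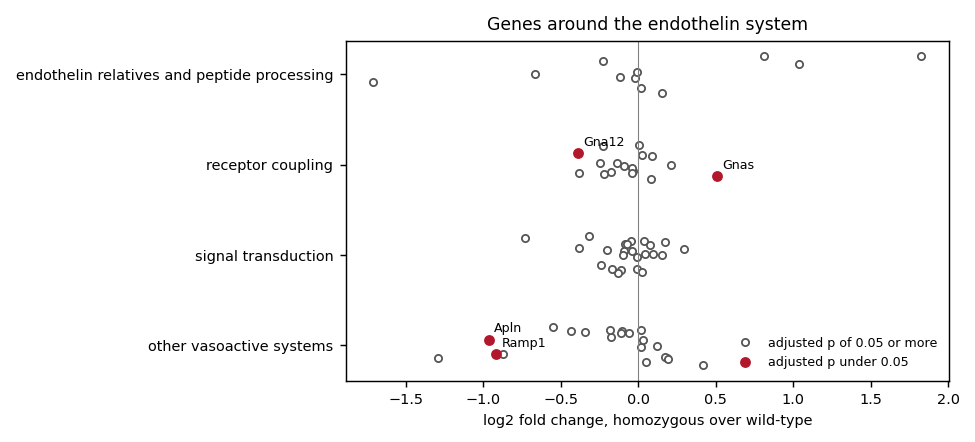
Log2 fold change of homozygous over wild-type (horizontal axis) for each tested gene of the 4 lists of genes that work with endothelins (rows; the height within a row has no meaning). Filled points mark the 4 genes called by edgeR at an adjusted p under 0.05, Gnas above 0 and Gna12, Ramp1 and Apln below it.

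Markers of the cell types that could hold endothelin genes were read beside the members. The 9 endothelial markers with their own identifiers summed to between 1027 and 1108 CPM in homozygous and between 980 and 1067 CPM in heterozygous hearts, against 923 to 1061 CPM in wild-type hearts, with 0 of 9 called by edgeR in any comparison. Markers of smooth muscle and pericytes summed to between 758 and 888 CPM in homozygous and between 783 and 937 CPM in heterozygous hearts, against 930 to 978 CPM in wild-type hearts, and 1 of 10, Abcc9, was lower in homozygous against wild-type hearts (log2 -0.74, adjusted p = 0.0252). The summed smooth muscle and pericyte markers of all homozygous libraries lay below those of all wild-type libraries, and the other groups overlapped in both lists. Singly, the 10 smooth muscle and pericyte markers had log2 fold changes from -0.74 to 0.23 for homozygous against wild-type, with a median of -0.02. The part of these cells in the members' levels was not tested.

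The markers of Schwann cells and melanocytes, the neural crest cells in which Edn3 and Ednrb act during development, summed to 14.3, 20.8 and 15.7 CPM in homozygous hearts and 8.67, 11.4 and 14.2 CPM in heterozygous hearts, against 10.3, 9.78 and 11.2 CPM in wild-type hearts. Of the 9 markers, 1 was called higher, Dct, an enzyme of melanin synthesis. Dct had 9.70, 13.7 and 9.14 CPM in homozygous hearts and 3.97, 4.99 and 5.49 CPM in heterozygous hearts, against 4.34, 3.35 and 4.67 CPM in wild-type hearts. Its log2 fold change was 1.40 for homozygous against wild-type (adjusted p = 0.00336) and 1.17 for homozygous against heterozygous (adjusted p = 0.0162, edgeR), and the second call was lost without homozygous replicate 2 (adjusted p = 0.0560) or heterozygous replicate 1 (0.0720). Of the other melanocyte markers, Tyrp1 was at 0 in all 3 homozygous libraries, against 0.029 to 0.033 CPM in wild-type hearts, and Mlana was at no more than 0.029 CPM in homozygous against 0.032 to 0.122 CPM in wild-type hearts. Pmel was at 0.516 to 0.821 CPM in homozygous hearts, against 0.467 to 0.644 CPM in wild-type hearts, and none of these 3 was called by edgeR. The part of these cells in the level of Edn3 was not tested.

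Over all marker lists, 98 genes with 90 tested, edgeR called 2 higher and 2 lower in homozygous against wild-type hearts, 4.44% of those tested beside 4.39% of all genes. Besides Dct and Abcc9 these were Myl2, a ventricular myosin light chain (log2 0.79, adjusted p = 0.0437), and Prox1, a factor of lymphatic endothelium (log2 -0.84, adjusted p = 0.0213). The 6 lymphatic markers summed to between 86.9 and 96.2 CPM in homozygous hearts, against 82.5 to 95.2 CPM in wild-type hearts. Their log2 fold changes ran from -0.84 to 0.64 in this comparison, with a median of -0.02. The calls of Abcc9, Myl2 and Prox1 were each lost when single libraries were left out, with adjusted p up to 0.108, 0.161 and 0.0935. They were also lost with the library-number run in the fit, with adjusted p of 0.162 for Abcc9, 0.269 for Myl2 and 0.142 for Prox1. Markers of atria summed to between 545 and 693 CPM in homozygous and between 246 and 2374 CPM in heterozygous hearts, against 270 to 369 CPM in wild-type hearts. Nppa carried most of the homozygous sums, and 5 of the 6 tested atrial markers had a log2 fold change below 0 for homozygous against wild-type, with a median of -1.34 and 0 called by edgeR. Their part in the level of Edn3 was not tested.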

How the data were processed

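RNA was sequenced in paired reads of 150 bases with a directional library kit, per the labels' protocols. The submitters' processing notes name cutadapt 1.8, Salmon 1.2.1 and GRCm39, with no role given. The tool that counted the parts and its use of strand are not given in the sources used here. The authors deposited inclusion counts (reads in a part) and exclusion counts (junction reads that skip it) for each part and library, with PSI as a fraction and a part-length column used here as a number of bases. The authors also deposited difference scores between group means of PSI, which were not used. Recomputing PSI from the deposited counts with 148 bases added to the part length gave a largest gap of 5e-07. A read that spans several parts seems to count in each, so a sum over a gene exceeds its fragments.

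The members and lists were chosen with earlier results of these data known. Groups came from sample titles, and no library was left out. Counts were summed per gene identifier, and 44018 parts shared by overlapping genes, with 17.8% of inclusion reads, stayed under joined identifiers. Genes were fitted with edgeR 4.0.16 (quasi-likelihood test after TMM scaling and filterByExpr, 6 residual degrees of freedom, 22049 genes, Benjamini-Hochberg adjustment) in R 4.3.3, and CPM use the TMM factors. PSI of 55648 parts, with at least 10 reads in each library and PSI neither always under 0.05 nor always over 0.95, was fitted with limma 3.58.1 (variance trend). Both steps were also run on simulated data, for genes with a fixed spread and for parts with the sampling of reads alone. This does not test them at the spread between these libraries. DESeq2 1.42.0 was an alternative. Genes named from the lists were those called with groups that did not overlap, plus Gnaq, Gna11, Mme, Nos3 and Edn2, and the 5 most like Edn3. Names of genes under the joined identifier came from a table of gene symbols. Tables and figures were made with matplotlib 3.10.9, numpy 2.4.6 and pandas 2.3.3 under Python 3.11.15.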

Additional observations from a re-analysis of the deposited data

How the results depend on the processing

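Under 17 alternatives the log2 fold change of Edn3 ran from 3.70 to 4.43 for homozygous against wild-type, from 1.25 to 1.98 for heterozygous against wild-type and from 2.37 to 2.62 for homozygous against heterozygous. The extremes of the first 2 came without wild-type replicates 1 and 3, the libraries with the fewest and the most Edn3 reads. Counts over all genes moved more. Called genes for homozygous against wild-type, 969 in the report, were 2384 with no low-count filter, 2574 with DESeq2, 297 with the library-number run as a covariate and 295 to 1319 with single libraries left out. For heterozygous against wild-type, 0 became 54 with no low-count filter and 22 with DESeq2. For homozygous against heterozygous, 209 became 995 with no low-count filter, 950 with DESeq2, 105 with only those 2 groups in the fit and 68 to 306 with single libraries left out. Called pathway genes, 4 for homozygous against wild-type, were 8 with no low-count filter, 1 with the run as a covariate and 1 to 5 with single libraries left out. For homozygous against heterozygous the 1 call became 3 with no low-count filter, 4 with DESeq2 and 1 to 2 with single libraries left out. Called parts for heterozygous against wild-type, 42, were 22 with constant parts kept, 15 on a logit scale, 0 with only those 2 groups and 12 to 49 with single libraries left out, 12 being without heterozygous replicate 1. The cause was not tested.

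With the replicate number as a block, called genes were 2207 for homozygous against wild-type and 404 for homozygous against heterozygous, called parts for heterozygous against wild-type were 0, and the log2 fold change of Edn3 for homozygous against wild-type was 4.06. The numbers were not taken as pairs in the main fit. Deviations of same-numbered libraries correlated from -0.295 to 0.662 and exceeded 0.1 in 6 of 9 pairs. Those of differently numbered libraries of different groups correlated from -0.526 to 0.486. These correlations do not settle whether the numbers are pairs. With 3 libraries a group and as few as 192 reads of Edn3, the wild-type level is the least precise value, and counts cannot divide Ece2 from the genes joined with it.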
